A study of Mus musculus with 4 samples.

Results

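The 10 genes described here encode the enzymes that make melanin, the fibril matrix of the melanosome, and the channels, transporters and receptor of its membrane. They were chosen by name: the tyrosinase family enzymes Tyr, Tyrp1 and Dct; the matrix genes Pmel and Mlana with the protease gene Bace2; and the membrane genes Slc45a2, Oca2, Slc24a5 and Gpr143. All 10 were found among the 53465 genes of the table, and all 10 passed the filter on low counts with 12320 genes in all. The cells were B16-F10, a pigmented mouse melanoma line, that had been made fluorescent and infused into zebrafish. In 2 libraries, named extravasated 1 and 2 here, the label marks the cells as having left the vessels of the fish. In the other 2, named not extravasated 1 and 2, it marks them as not having done so, and the study treats these as the control. All cells were grown in IMDM with 10% fetal bovine serum after recovery and were read by polyA RNA sequencing, so the levels are those of cultured cells and not of cells in the fish. The growth text in the labels is the same for all 4 libraries and describes extravasated cells, so the grouping was read from the extravasation field. Whether libraries of 1 group stem from separate cultures is not stated, and p-values may therefore reflect technical spread only. The library titles hold a number that is the same within each group and differs between the groups. Its meaning is not given, and whatever it marks cannot be told apart from extravasation.

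Melanin is made inside melanosomes, organelles related to lysosomes. Tyrosinase oxidises tyrosine to dopaquinone, and DCT (dopachrome tautomerase) and TYRP1 act further along the path to eumelanin, the black or brown pigment. PMEL is cut and assembles into amyloid fibrils on which the pigment is laid down, and pigment formation depends on the ion balance that the membrane proteins of the organelle keep. In melanocytes the transcription factor MITF activates many of these genes, through sites that hold the letters CATGTG, which in the promoters of tyrosinase genes lie within a longer element called the M-box, AGTCATGTGCT.

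The promoters of the 3 enzyme genes are shown because these genes form a family and share that element in part. RefSeq windows of 300 bases (GRCm38.p6), which begin 250 bases before the RefSeq start of the gene, were at hand for 5 of the 10 genes: Tyr, Tyrp1, Dct, Oca2 and Slc24a5. Capitals mark CATGTG on either strand and, where present, the M-box that contains it.
Tyr (chr7:87493463-87493762, minus strand): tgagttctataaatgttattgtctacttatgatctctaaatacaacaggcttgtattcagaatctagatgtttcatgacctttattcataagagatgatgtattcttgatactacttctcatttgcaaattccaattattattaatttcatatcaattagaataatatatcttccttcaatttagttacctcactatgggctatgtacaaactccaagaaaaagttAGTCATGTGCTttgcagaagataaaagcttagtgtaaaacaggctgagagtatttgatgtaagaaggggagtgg
Tyrp1 (chr4:80833963-80834262, plus strand): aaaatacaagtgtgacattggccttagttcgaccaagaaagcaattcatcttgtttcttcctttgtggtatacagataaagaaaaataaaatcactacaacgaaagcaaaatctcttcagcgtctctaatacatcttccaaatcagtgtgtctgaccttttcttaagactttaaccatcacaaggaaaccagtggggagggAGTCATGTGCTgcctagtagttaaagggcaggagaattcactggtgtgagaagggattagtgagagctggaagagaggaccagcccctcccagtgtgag
Dct (chr14:118052197-118052496, minus strand): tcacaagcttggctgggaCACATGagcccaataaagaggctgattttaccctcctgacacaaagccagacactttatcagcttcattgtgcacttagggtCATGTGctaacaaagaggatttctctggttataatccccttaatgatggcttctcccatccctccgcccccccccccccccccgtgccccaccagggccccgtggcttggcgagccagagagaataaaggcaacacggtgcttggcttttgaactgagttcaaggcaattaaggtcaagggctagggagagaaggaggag

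The exact M-box stood in the windows of Tyr and Tyrp1, beginning 24 and 49 bases before the RefSeq start on which each window is set. The GENCODE span of Tyrp1 given with its values begins upstream of that start, and its M-box lies inside that span. The letters were read as the run around CATGTG that these windows share, so their own match is by construction. Both strands were searched, and 7 of 32851 mouse promoter windows (0.0213%) held it. The other 5 belonged to C1qb and 4 genes with provisional names. The core letters CATGTG alone were found in 14.2% of windows. Dct held them at 2 places, beginning 232 bases (on the other strand) and 150 bases before its RefSeq start. The copy at 150 bases lies in GGTCATGTGCT, which differs from the M-box only in the leading letter, so the exact search did not count it. Oca2 and Slc24a5 held 1 copy each, and the palindromic CACGTG, present in 7.15% of windows, was in none of these 5. A match of letters is a description of the window and says nothing on whether a factor binds there.

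The 4 libraries held 11705904 and 16430477 counts (not extravasated 1 and 2) and 13256522 and 19674733 counts (extravasated 1 and 2). Pearson correlations of log2 CPM (reads scaled to a common library total) across genes were 0.979 and 0.989 within the groups and 0.934 to 0.945 between them. Of 12320 genes tested, 19.1% were called higher and 25.9% lower in extravasated libraries at an adjusted p under 0.05 (edgeR quasi-likelihood test, two-sided). Because fold changes ran with the base composition of transcripts, each gene was also fitted with an offset for transcript GC content and length, called the offset here. Sox10 and Mitf, which mark the melanocyte lineage, were present in every library at 942 to 1903 and 166 to 530 CPM. Markers of other cell types were scarce: 6 fibroblast genes summed to 8.51 to 11.3 CPM, 5 leukocyte genes to 3.84 to 4.77 CPM, and 4 endothelial genes to 0.0868 to 0.984 CPM. The 5 keratinocyte genes had no count in any library, and Dcn, Lum, Ptprc, Cdh5 and Kdr had none either. The 3 Schwann cell genes summed to 28.4 CPM in not extravasated 2 and to 10.9 to 13.1 CPM elsewhere. The part of these genes in the results was not tested.

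Together the 10 genes took 2.83% and 2.48% of all counts in the not extravasated libraries and 3.08% and 2.86% in the extravasated ones. The exact 95% intervals (Clopper-Pearson, counting error only) were within 0.01 percentage points of each share. The group means were 2.65% ± 0.245 and 2.97% ± 0.152 (SD, n = 2 each). An exact permutation test, two-sided, gave p = 0.333, the smallest that 2 against 2 libraries can give. In bulk RNA, fewer cells that make a transcript and less transcript per cell cannot be told apart.

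Pigment transcripts were among the most abundant in these cells. Tyrp1 ranked 5th, Dct 7th, Pmel 10th and Mlana 39th by mean CPM among the tested genes. Scaled to the length of the annotated transcript, Tyrp1 had a mean level of 3961 CPM per kilobase, Dct 3381, Pmel 3039 and Mlana 1723. The ranges over libraries of Tyrp1, Dct and Pmel overlapped, at 3313 to 4619, 2767 to 3795 and 2146 to 3876 CPM per kilobase, so their order is within their spread. Mlana, at 1183 to 2058 CPM per kilobase, stayed below them. Slc24a5 (228 to 332 CPM per kilobase) and Slc45a2 (109 to 318) followed and overlapped. Tyr lay at 50.5 to 96.9 CPM per kilobase, and below it Bace2 (18.1 to 33.4) and Gpr143 (14.7 to 29.8) overlapped. Oca2 had the lowest level per length of the 10, at 3.97 to 10.7 CPM per kilobase. These levels rest on annotated transcripts. Those of Tyr and Bace2 carry 4278 and 6041 bases after the stop codon, and per kilobase of coding sequence Tyr averaged 266 CPM and Bace2 125 CPM.

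**Figure D1:**
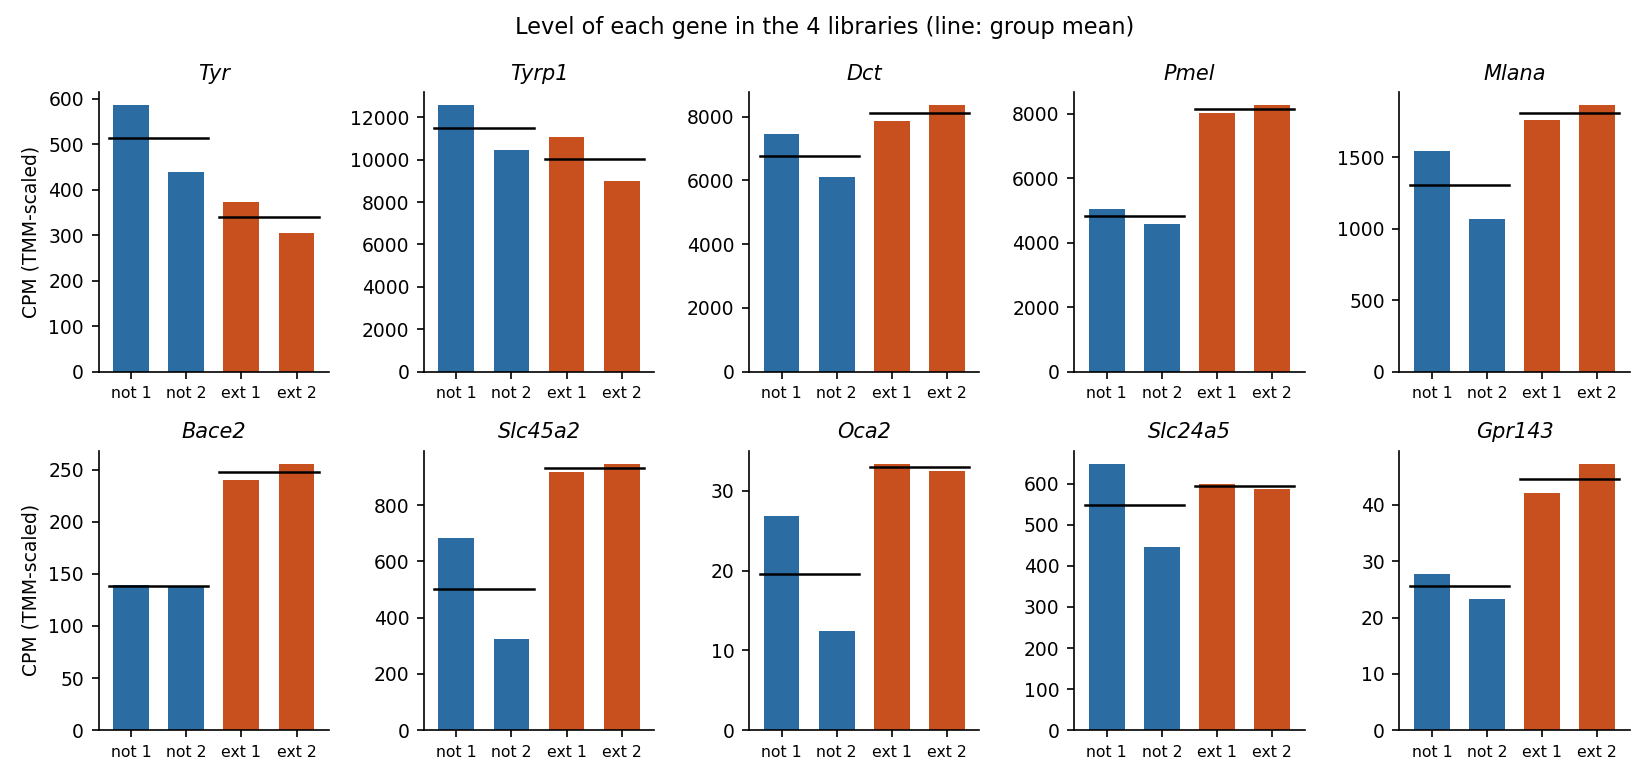
Level of each gene (TMM-scaled CPM, linear axes from 0) in not extravasated libraries 1 and 2 (blue) and extravasated libraries 1 and 2 (orange); the black line is the group mean. Pmel, Bace2 and Gpr143 stand higher in both extravasated libraries and Tyr lower. All genes but Tyr and Tyrp1 are lowest in not extravasated 2. The relative drop from not extravasated 1 to not extravasated 2 is largest in Slc45a2 and Oca2.

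Among the enzymes, Tyr was called lower without the offset and higher with it (0.77, adjusted p = 0.0470), and the other two were called in neither fit. Tyr (ENSMUSG00000004651.6, GRCm38 chromosome 7, 87424771 to 87493512, minus strand) encodes tyrosinase, which carries out the first and rate-limiting step. It stood at 585 and 439.8 CPM in not extravasated 1 and 2 and at 373 and 305 CPM in extravasated 1 and 2, so the groups did not overlap. Its log2 fold change was -0.60 ± 0.17 (SE; edgeR adjusted p = 0.0268). Within the groups, library 2 minus library 1 was -0.41 and -0.29 on the log2 scale. The call ended without extravasated 1 (log2 fold change -0.72, adjusted p = 0.0567) and without extravasated 2 (-0.49, adjusted p = 0.164).

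Tyrp1 (ENSMUSG00000005994.14, chromosome 4, 80834123 to 80851719), whose product stabilises tyrosinase and acts late in eumelanin synthesis, stood at 12563 and 10466 CPM in not extravasated 1 and 2 and at 11056 and 9011 CPM in extravasated 1 and 2. The groups overlapped, and the log2 difference of -0.20 ± 0.14 did not pass (adjusted p = 0.293). Dct (ENSMUSG00000022129.4, chromosome 14, 118012790 to 118052244, minus strand), the dopachrome tautomerase gene, stood at 7463 and 6093 CPM and at 7865 and 8357 CPM in the same order. The groups did not overlap, but the higher control library was close to the lower extravasated one, and the log2 difference of 0.26 ± 0.13 did not pass (adjusted p = 0.136). It passed without not extravasated 1, at 0.41 (adjusted p = 0.0170), and was 0.12 without not extravasated 2. It also passed with the kind of title suffix as a term (0.27, adjusted p = 0.0372), a label that crosses the groups and whose meaning is not given.

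In the counts as deposited, the make-up of the family differed between the groups, and with the offset it did not separate them. Tyr gave 2.84% and 2.59% of the reads of the 3 enzyme genes in not extravasated 1 and 2, and 1.94% and 1.73% in extravasated 1 and 2. Dct gave 36.2% and 35.8%, against 40.8% and 47.3%. Tyrp1 gave 61.0% and 61.6%, against 57.3% and 51.0%. Such shares do not depend on how libraries are scaled to each other, but they do depend on the offset. There were 12.8 and 13.9 Dct reads for each Tyr read in the not extravasated libraries, and 21.1 and 27.4 in the extravasated ones. With the offset the Tyr share was 1.64% and 2.36% against 3.06% and 2.07%, and the Dct share 41.8% and 40.2% against 36.3% and 41.6%. The groups then overlapped in both shares, and in Dct reads for each Tyr read (25.5 and 17.0 against 11.9 and 20.1). With an offset from the coding sequence alone, the Tyr share was 2.374% and 2.274% against 2.251% and 2.048%, close but without overlap. The Dct share overlapped there too (40.72% and 39.72% against 37.32% and 42.15%). The smallest p of an exact permutation test is again 0.333 here, and no test was made.

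**Figure D2:**
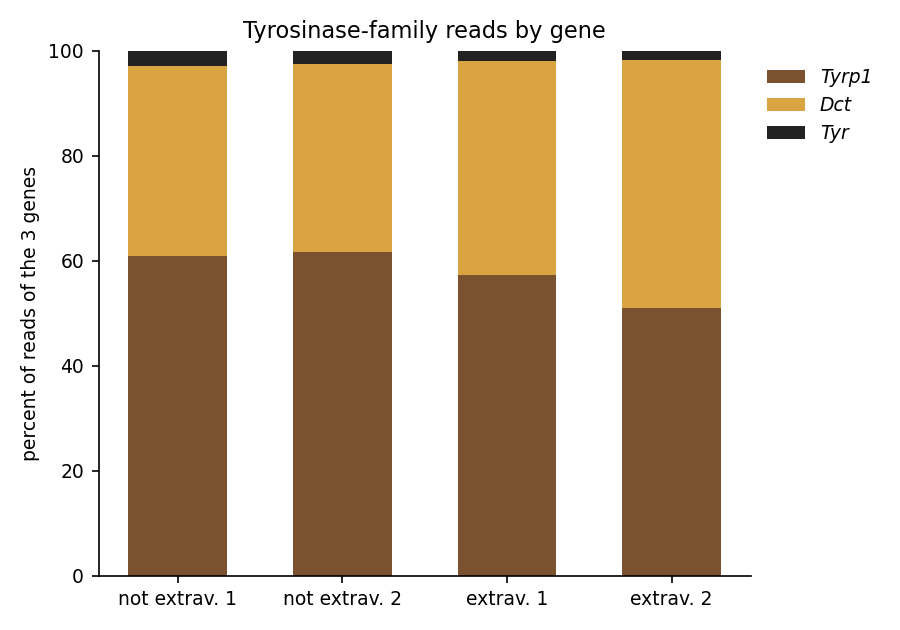
Percent of the reads of Tyrp1, Dct and Tyr, as counted and with no offset, that came from each of the 3 genes, in not extravasated libraries 1 and 2 and extravasated libraries 1 and 2. The Dct share is 36.2% and 35.8% in the first pair and 40.8% and 47.3% in the second, and the Tyr share is smaller in both extravasated libraries; with the offset the groups overlap in both shares.

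Of the matrix genes, Pmel and Bace2 rose and Mlana was not called. With the offset Bace2 stayed called, Pmel no longer passed (0.42, adjusted p = 0.0530) and Mlana passed (0.76, adjusted p = 0.0278). Pmel (ENSMUSG00000025359.10, chromosome 10, 128704195 to 128720238) encodes the protein of the melanosome fibrils. It stood at 5049.8 and 4571 CPM in not extravasated 1 and 2 and at 8011 and 8257 CPM in extravasated 1 and 2. The groups were far apart against their own spread, and the log2 fold change was 0.76 ± 0.11 (SE; adjusted p = 0.00224). Without the offset the call held without each library in turn, with values of 0.69 to 0.83. With the longest annotated transcripts in the offset it was lost too (0.39, adjusted p = 0.0661). It held with GC content alone in the offset (0.46, adjusted p = 0.0330) and with an offset from the coding sequence (0.62, adjusted p = 0.00950). Pmel made up 17.6% and 19.4% of the reads of the 10 genes in not extravasated libraries and 25.9% and 27.8% in extravasated ones.

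Bace2 (ENSMUSG00000040605.6, chromosome 16, 97356742 to 97442936) encodes an aspartyl protease that, in pigment cells, cuts PMEL. Its levels were 139 and 138 CPM in not extravasated 1 and 2 and 240.45 and 256 CPM in extravasated 1 and 2. The log2 fold change was 0.84 ± 0.12 (adjusted p = 0.00204), and it was called without each library in turn (0.76 to 0.91). Reads of Pmel for each read of Bace2 were 36.2 and 33.1 in the not extravasated and 33.3 and 32.3 in the extravasated libraries. With the offset the ratio was 60.05 and 48.2 against 23.6 and 19.0, so the narrow band holds for the counts as deposited. With an offset from the coding sequence alone it was 37.3 and 34.01 against 32.9 and 30.9.

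Mlana (ENSMUSG00000024806.3, chromosome 19, 29697824 to 29708634) encodes MART-1, a small melanosomal membrane protein that is needed for PMEL processing. It stood at 1547 and 1072 CPM in not extravasated 1 and 2 and at 1763 and 1865 CPM in extravasated 1 and 2. The groups did not overlap, and the log2 difference of 0.47 ± 0.18 did not pass (adjusted p = 0.0654). It was 0.76 and called without not extravasated 1 (adjusted p = 1.24e-05), and 0.23 without not extravasated 2. With the title suffix as a term it was 0.49 and called (adjusted p = 0.00145).

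Of the 4 membrane genes, Gpr143 rose and the others were not called. Gpr143 (ENSMUSG00000025333.10, chromosome X, 152781921 to 152808646), the ocular albinism gene, encodes a G protein-coupled receptor of the melanosome membrane. It stood at 27.8 and 23.3 CPM in not extravasated 1 and 2 and at 42.0 and 47.3 CPM in extravasated 1 and 2. The groups did not overlap, and the log2 fold change was 0.81 ± 0.16 (adjusted p = 0.00694). Without extravasated 2 it was 0.69 and not called (adjusted p = 0.0784).

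Slc45a2 (ENSMUSG00000022243.10, chromosome 15, 11000721 to 11029233) encodes a sugar and proton transporter that affects melanosome pH. Its levels were 682 and 324 CPM in not extravasated 1 and 2 and 917 and 947 CPM in extravasated 1 and 2. Both extravasated libraries were higher than both others, but not extravasated 2 minus not extravasated 1 was -1.07 on the log2 scale, larger in size than the difference between groups of 0.89 ± 0.34 (adjusted p = 0.0855). The value was 1.53 without not extravasated 1 and 0.45 without not extravasated 2. It was called in both of these fits (adjusted p = 1.48e-12 and 0.00699), in which the lone control library is assumed to vary like the extravasated ones.

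Oca2 (ENSMUSG00000030450.11, chromosome 7, 56239760 to 56536518) encodes the pink-eyed dilution protein, which takes part in chloride conductance of the melanosome. It had 26.8 and 12.4 CPM in not extravasated 1 and 2 and 33.4 and 32.5 CPM in extravasated 1 and 2. Here too not extravasated 2 stood apart, and the log2 difference of 0.76 ± 0.35 did not pass (adjusted p = 0.127). It was 1.4 and called without not extravasated 1 (adjusted p = 5.64e-07), and 0.30 without not extravasated 2. With the title suffix as a term it was 0.84 and called (adjusted p = 0.0135). Reads of Slc45a2 for each Oca2 read were 25.4, 26.0, 27.5 and 29.2 in not extravasated 1 and 2 and extravasated 1 and 2. Both genes were thus lowered in not extravasated 2 to a like degree.

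Slc24a5 (ENSMUSG00000035183.14, chromosome 2, 125068124 to 125088677), a potassium-dependent sodium and calcium exchanger gene, stood at 648 and 446 CPM in not extravasated 1 and 2 and at 599.8 and 587 CPM in extravasated 1 and 2. The extravasated libraries lay between the 2 controls, and the log2 difference was 0.12 ± 0.18 (adjusted p = 0.621). It was 0.41 and called without not extravasated 1 (adjusted p = 0.0127), and -0.13 without not extravasated 2.

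Compared by the Euclidean distance of their log2 CPM deviations over the 4 libraries, with no offset, the genes fell into a few shapes. Pmel and Bace2 were closest to each other (distance 0.125), and Gpr143 was closest to Pmel (0.128). Slc45a2 and Oca2 were closest to each other (0.156). Dct and Slc24a5 were closest to each other (0.230), and Mlana to Dct (0.283). Tyr and Tyrp1 were closest to each other (0.402), at a larger distance than the other pairs. These distances rest on 4 libraries that share their library totals, and they describe likeness only.

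**Figure D3:**
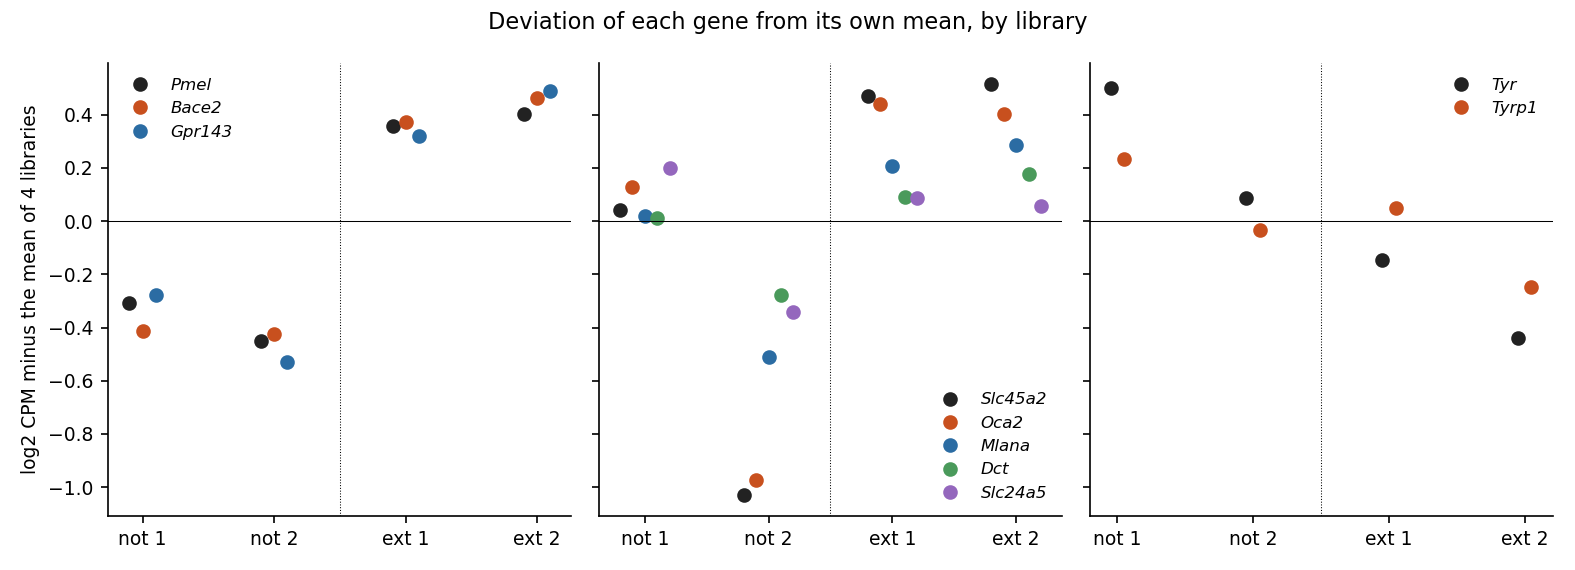
Log2 CPM of each gene minus its own mean over the 4 libraries, by library, in 3 panels. The dotted line parts the groups. The panels are a layout and not a grouping by distance, and genes in one panel need not have like shapes. Among the genes described here, Slc45a2 was the farthest from Dct (distance 0.909) and from Slc24a5 (0.927). Pmel, Bace2 and Gpr143 separate the groups with little spread, Slc45a2 and Oca2 are near -1 in not extravasated 2, and Tyr is the gene with its highest values in both not extravasated libraries.

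In all, 3 of the 10 genes were called higher and 1 lower, read against 19.1% and 25.9% of all tested genes. Their median log2 fold change was 0.61, and that of all tested genes -0.02. The median of the 10 genes depended on which control library was kept. It was 0.80 without not extravasated 1 and 0.26 without not extravasated 2, against -0.02 and -0.0092 for all tested genes. The groups did not overlap for 8 genes, 7 with the extravasated libraries higher and 1 lower. Over all tested genes, 37.3% were apart with the extravasated libraries higher and 39.0% with them lower. With DESeq2 in place of edgeR, 5 were higher and 1 lower (18.1% and 24.2% of tested genes), since Mlana (0.49, adjusted p = 0.0349) and Oca2 (0.78, adjusted p = 0.0469) then passed. Without not extravasated 1, 8 were higher and 1 lower, when 22.3% and 27.9% of tested genes were. Without not extravasated 2, 4 were higher and 1 lower (18.9% and 28.2%). Without extravasated 1, 3 were higher and 0 lower (9.43% and 16.9%), and without extravasated 2, 2 were higher and 0 lower (2.37% and 11.2%), by edgeR, where Tyr kept its negative sign.

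Fold changes in these libraries ran with the base composition of the transcripts, and the 10 genes must be read against that. Over 11126 nuclear coding genes Spearman's rho between transcript GC content and fold change was 0.74, a description across genes with no test. In the decile of genes with the lowest GC content (33.4 to 42.1%), the median log2 fold change was -1.27, and 78.3% were lower. The annotated Tyr transcript, 6042 bases long with a GC content of 35.2%, lies in that decile, and 17 tested genes had a lower GC content. Its coding sequence of 1599 bases has 46.3% GC, and the stretch behind the stop codon 30.9%. Slc24a5 (43.8% GC) lies in the second decile, where the median was -1.03, and Tyrp1, Mlana and Bace2 (45.6, 46.6 and 45.9% GC) in the third, where it was -0.67. Oca2 (48.1%) lies in the fourth, with a median of -0.32, and Dct, Slc45a2 and Gpr143 (49.7, 48.8 and 50.3%) in the fifth, with -0.07. Pmel (53.8%) lies in the seventh, with 0.30. Each of the 10 genes had a log2 fold change above the median of its own decile. By definition a decile holds as many genes above its median as below it.

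**Figure D4:**
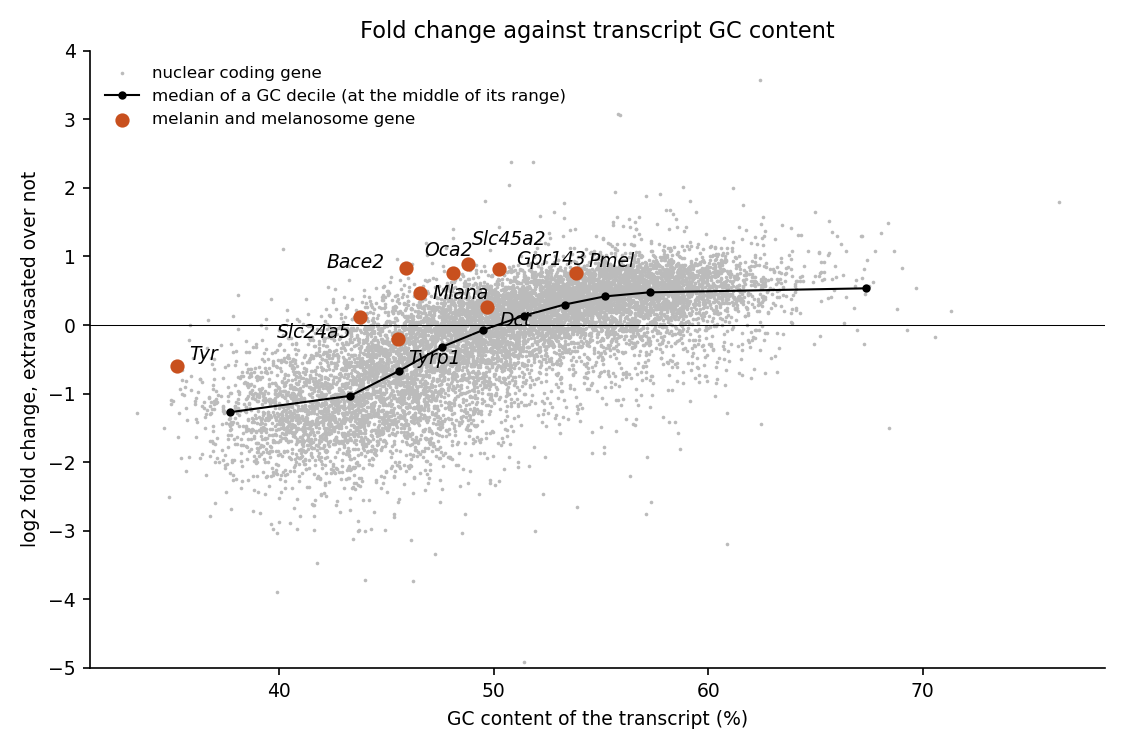
Log2 fold change (extravasated over not extravasated) against the GC content of the annotated transcript, in percent, for 11126 nuclear coding genes (grey), with the median of each decile of genes by GC content (black) and the 10 genes named (orange). Each of the 10 genes lies above the median of its own decile, with Tyr at the low-GC end and Pmel on the high-GC side.

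To take that trend out, the deviation of each library was smoothed on transcript GC content and length and entered the fit as an offset. Over all tested genes, 8.24% were then called higher and 5.80% lower. Of the 10 genes, 5 were called higher and 0 lower (edgeR; 0 were lower at an unadjusted p under 0.05 too), with a median log2 fold change of 0.77 against 0.04 for all tested genes. After the offset the groups of all 10 genes were apart with the extravasated libraries higher, as for 35.8% of tested genes. Bace2 (1.78 ± 0.15, adjusted p = 0.00304) and Gpr143 (0.73 ± 0.16, adjusted p = 0.0248) kept their calls. Slc24a5 (0.93 ± 0.15, adjusted p = 0.0106) and Mlana (0.76 ± 0.17, adjusted p = 0.0278) passed, and Pmel (0.42 ± 0.12, adjusted p = 0.0530) no longer did.

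Tyr turned direction. Its level after the offset was 285 and 353 CPM in not extravasated 1 and 2 and 655 and 438 CPM in extravasated 1 and 2, and its log2 fold change became 0.77 ± 0.20 (adjusted p = 0.0470). With the longest annotated transcripts it was 0.75 and with GC content alone 0.60, and neither was called (adjusted p = 0.0541 and 0.0737). Tyrp1 turned as well, to 0.43 ± 0.13 (adjusted p = 0.0639). With the longest annotated transcripts Tyrp1 was at 0.38 and not called (adjusted p = 0.0954). With GC content alone it was at 0.50 and called higher (adjusted p = 0.0310). The direction of both enzyme genes therefore depends on the offset. Slc45a2 (1.11, adjusted p = 0.0837), Oca2 (1.09, adjusted p = 0.0764) and Dct (0.32, adjusted p = 0.165) kept their direction and did not pass. Without extravasated 1 or extravasated 2 the edgeR offset fit called 0 genes of all tested (2415 and 2065 passed an unadjusted p of 0.05).

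Since the offset rests on annotated ends that these cells need not use, it was also computed from the coding sequence alone, a choice made after seeing the data. There 13.0% of tested genes were higher and 10.6% lower. Of the 10 genes, Pmel (0.62, adjusted p = 0.00950), Bace2 (0.78, adjusted p = 0.00461), Gpr143 (0.79, adjusted p = 0.0107), Slc24a5 (0.93, adjusted p = 0.00552) and Oca2 (1.28, adjusted p = 0.0294) were called higher. Tyr was at 0.24 ± 0.14 (adjusted p = 0.247), Tyrp1 at 0.37 (adjusted p = 0.0709) and Mlana at 0.20 (adjusted p = 0.401), and none of these passed. The value of Bace2 was 1.78 with the transcript offset and 0.78 here, and the cause was not tested.

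**Figure D5:**
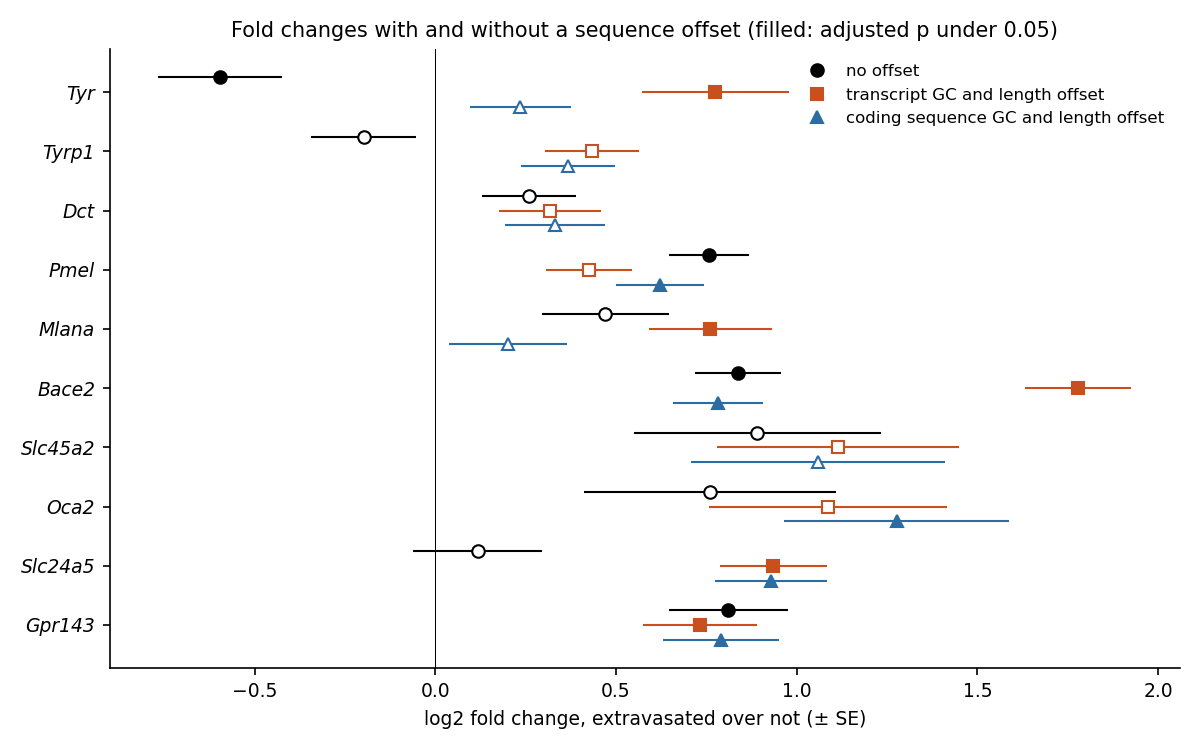
Log2 fold change (extravasated over not extravasated, ± SE from edgeR) of the 10 genes with no offset (black circles), with the transcript GC and length offset (orange squares) and with the coding sequence offset (blue triangles); filled symbols passed an adjusted p of 0.05. Bace2 and Gpr143 are filled in all 3 fits, and Tyr and Tyrp1 lie left of 0 only without an offset.

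Other genes of the pathway were taken from 4 lists, whose counts stand against 19.1% higher and 25.9% lower over all tested genes, and 8.24% and 5.80% with the offset. The median over all tested genes was -0.02, and 0.04 with the offset. Of 10 genes that sort or cut PMEL, 6 rose and 2 fell, with a median log2 fold change of 0.48. Cd63, a tetraspanin that sorts PMEL, rose by 0.55 and Apoe, an apolipoprotein that takes part in fibril formation, by 0.53 on the log2 scale (adjusted p = 0.00705 and 0.00703). The sheddase genes Adam10 and Adam17 fell by 1.5 and 1.30 on that scale (adjusted p = 0.00120 and 0.00105). With the offset the median of the list was 0.05, none of these 4 was called, and Cd63 and Apoe were at -0.0045 and -0.058. Of 25 genes of melanosome biogenesis and transport, 6 rose and 5 fell, with a median of 0.38. Dtnbp1, a BLOC-1 subunit, rose by 0.72 (adjusted p = 0.00380), and the AP-3 subunits Ap3s1 and Ap3m1 (-1.18 and -1.12, adjusted p = 0.00120 and 0.00170) and the lysosomal trafficking regulator Lyst (-2.0, adjusted p = 0.00285) fell. With the offset the median was 0.26, and 6 rose and 1, Lyst (-0.67), fell. Of the 6, Vps33a was called without the offset too, while Rab32, Bloc1s5, Rab38, Rab27a and Bloc1s6 were not. Dtnbp1 was not called with it (0.16, adjusted p = 0.403), and Ap3m1 turned to 0.20 (adjusted p = 0.365).

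Of 11 further transporters and channels, 2 rose and 4 fell, with a median of 0.28. Atp7a, which supplies copper to tyrosinase, fell by 1.71 on the log2 scale (adjusted p = 0.00260). The cystine carrier gene Slc7a11 (-1.23, adjusted p = 0.00476) and Ostm1 (-0.72, adjusted p = 0.0130) fell as well. Clcn7, which encodes the chloride and proton exchanger that pairs with OSTM1, rose by 0.59 (adjusted p = 0.0163). In the edgeR fit with the offset, Slc7a11 was at 0.33 (adjusted p = 0.325) and Ostm1 at -0.018 (adjusted p = 0.941). Atp7a was there at -0.77 (adjusted p = 0.0538) and Clcn7 at 0.36 (adjusted p = 0.115). Of 13 tested regulators and receptors of 17 listed, 2 rose and 5 fell, with a median of 0.03. Sox10 and Tfeb rose by 0.77 and 0.80 (adjusted p = 0.00425 and 0.0132), and Zeb2 and Atrn had values of -1.76 and -0.999 (adjusted p = 0.00324 and 0.00692). Mitf, one of the 5, stood at 530 and 320.5 CPM in not extravasated 1 and 2 and at 166 and 203 CPM in extravasated 1 and 2. Its log2 fold change was -1.20 (adjusted p = 0.0132), and -0.11 with the offset (adjusted p = 0.748). In the edgeR offset fit 0 genes of these last 2 lists were called, with 3 and 5 at an unadjusted p under 0.05.

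The annotated spans of 5 of the 10 genes overlap another gene, and the strand setting of the counting is not given in the sources used here. Cdk2 shares 837 bases with Pmel on the other strand and had 5693 to 11818 counts, against 58180 to 156815 for Pmel. Myef2 shares 4050 bases with Slc24a5 on the other strand and had 1920 and 2345 counts in the not extravasated and 699 and 964 in the extravasated libraries, against 7470 to 11148 for Slc24a5. The antisense genes at Dct and Oca2 had at most 2 counts. A processed pseudogene shares 363 bases with Bace2 on the same strand and was not analysed here. How reads in these stretches were assigned was not tested.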

How the data were processed

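PolyA RNA of 4 cultured B16-F10 libraries was measured, 2 marked as extravasated and 2 as not. The authors deposited 1 table of whole-number counts by Ensembl gene, with no normalization. Per the submitters' processing notes, bcl2fastq 2.18.0.12, STAR 2.5.3a and GRCm38 were used, and per the labels' protocols RNA came from a miRNeasy kit and libraries from a stranded TruSeq mRNA kit. The counter, annotation and strand setting are not given in the sources used here. Of 53465 identifiers, 53360 matched GENCODE M21 (GRCm38) without version.

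Counts were tested with edgeR 4.0.16 (R 4.3.3; minimum count 10, minimum total 15, TMM factors, robust quasi-likelihood test, two-sided, no covariate, Benjamini-Hochberg adjustment over 12320 genes, threshold 0.05). The standard error is the fold change over the root of F. CPM are TMM-scaled. The offset smooths each library's deviation in log2 CPM (prior count 2, mgcv 1.9.3, basis size 10) on GC content and log2 length of 1 transcript per gene. A coding transcript tagged APPRIS principal was preferred, and another transcript was taken where a gene had none. GC content and length were known for 99.89% of tested genes. Mitochondrially encoded genes got none. DESeq2 1.42.0 and limma-voom (limma 3.58.1) were alternatives. Code was tested on simulated counts. Precision was bounded by depth and by 2 libraries a group.

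The members, lists and tests were chosen with earlier results of these data known. Named are all 10 members and, of each list, up to 4 called genes with the smallest adjusted p and a mean of at least 10 CPM; Mitf, Lyst and the other genes named as called under the offset were named after their values were seen. Replicate numbers, in accession order, only name libraries.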

Additional observations from a re-analysis of the deposited data

How the results depend on the processing

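All alternatives chosen at the outset were run, and the cause of the changes below was not tested. The next counts also take in the coding sequence offset, which was chosen after seeing the data. For the fold changes of the 10 genes, 144 values kept their direction and side of the threshold, 37 newly passed, 12 no longer passed and 17 turned direction. Unadjusted for composition, edgeR called 2355 genes higher and 3196 lower. Upper quartile factors gave 3034 and 2947, and the median of all genes moved from -0.02 to 0.07 on the log2 scale. Of the 10 genes, 5 were called higher under upper quartile factors, DESeq2 (2229 genes higher and 2980 lower in all) and no expression filter (2575 and 3576), and 6 under limma-voom (2388 and 3189) and with the title suffix as a term (2632 and 3533), with Tyr lower each time. At an adjusted p under 0.01, 903 genes were higher and 1889 lower, and of the 10 genes 3 were higher and 0 lower.

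The GC and length offset gave 1015 genes higher and 714 lower, of the 10 genes 5 and 0, and of the genes of the pathway lists 7 and 1 (16 and 16 without it). With the longest transcripts these were 996 and 673, 4 and 0, and 7 and 2. With GC content alone they were 1204 and 1000, 6 and 0, and 9 and 5. With the coding sequence, chosen after seeing the data, they were 1599 and 1301, 5 and 0, and 12 and 5. In these 4 fits Tyr had log2 fold changes of 0.77, 0.75, 0.60 and 0.24, and Tyrp1 of 0.43, 0.38, 0.50 and 0.37.

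Leaving out each library in turn gave 292 to 2743 genes higher and 1385 to 3477 lower, of the 10 genes 2 to 8 higher and 0 to 1 lower, and of the pathway lists 1 to 23 higher and 9 to 16 lower. The lowest values came without extravasated 2. Slc24a5 ranged from -0.13 without not extravasated 2 to 0.41 without not extravasated 1. The difference in the summed share of the 10 genes was 0.143 to 0.4905 percentage points, against 0.317 with all libraries and 0.342 without mitochondrial genes. With the offset and 1 library left out, 0 to 1693 genes were higher and 0 to 1300 lower, of the 10 genes 0 to 8 higher and 0 lower, and of the pathway lists 0 to 17 higher and 0 to 5 lower. Without not extravasated 2 they were 1220 and 911 over all genes, and the edgeR counts of 0 came without either extravasated library, where 2415 and 2065 genes had an unadjusted p under 0.05. Tyr was then 0.64 and 0.93 without not extravasated 1 and 2 and 0.47 and 1.03 without extravasated 1 and 2, and Tyrp1 0.54, 0.34, 0.37 and 0.49. A lone library in a group is assumed to vary like the other group. No paired analysis was possible because replicate numbers follow accession order and the labels name no pairs; the title suffix term is the nearest to a block, and what the suffix marks is not given.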
